A study of Mus musculus with 16 samples.

Results

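Inhibitory receptors are surface proteins that dampen T cell responses, and T cells that stay exposed to antigen in a tumor come to carry several of them at once, a state called exhaustion. The genes described here encode 10 such surface proteins: Pdcd1 (PD-1), Havcr2 (TIM-3), Lag3, Tigit, Cd160, Entpd1 (CD39), Cd96, Btla, Cd200r1 and Vsir (VISTA). All are called receptors below, although CD39 is an enzyme. The 10 genes were taken by gene name from a count table of 55450 genes, which holds each of them in 1 row. CD4+ and CD8+ tumor-infiltrating lymphocytes (TILs) were isolated from melanomas that cells of the mouse line B16F10 had formed s.c. in WT C57BL/6J mice or in Sirt2-/- mice (strain B6.129-Sirt2tm1.1Fwa/J), and total RNA of each preparation was sequenced with a stranded kit. SIRT2 is a deacetylase, and the knockout is in the germline, so that the tumor's host cells lack it as well as the T cells. Each of the 4 groups (WT CD4+, Sirt2-/- CD4+, WT CD8+ and Sirt2-/- CD8+) has 4 libraries, all mice were young adults that received no treatment stated in the labels, and the labels do not say whether a library is 1 mouse or a pool, or whether CD4+ and CD8+ libraries of a number share an animal. TILs were enriched with magnetic beads against CD3ε, a step meant to remove cells other than T cells, and how CD4+ and CD8+ cells were then separated is not given in the sources used here. The p-values therefore measure the spread between these libraries.

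PD-1 and BTLA carry tyrosine motifs that recruit phosphatases to the T cell receptor. TIGIT and CD96 bind the nectin family ligand PVR, which they share with the activating receptor CD226, whereas LAG-3 binds MHC class II and CD160 and BTLA both bind HVEM, the product of Tnfrsf14. CD39 degrades extracellular ATP on the way to adenosine, CD200R1 binds CD200, and TIM-3 and VISTA have several ligands each.

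Total counts per library ranged from 28000949 to 62407851. At least 1 count was found on 17730 to 22138 genes in 13 libraries, but on 8169 genes in Sirt2-/- CD4+ replicate 4, on 12587 in WT CD4+ and on 14411 in WT CD8+ TILs, each of these replicate 1. These 3 libraries, below a minimum of 15000 genes, stand apart, and each comparison was therefore also run without them. Cd4 averaged 518 and 503 CPM (counts of the gene per 1000000 counts of the library) in WT and Sirt2-/- CD4+ TILs and at most 3.12 in CD8+ TILs, and Cd8a averaged 1030 and 1090 CPM in CD8+ TILs and at most 17.3 in CD4+ TILs. Foxp3, the lineage factor of regulatory T (Treg) cells, averaged 659 and 468 CPM in WT and Sirt2-/- CD4+ TILs and at most 4.12 in CD8+ TILs. Sirt2, the deleted gene, measured 38.8 ± 9.40 CPM in WT and 8.21 ± 1.82 in Sirt2-/- CD8+ TILs (SD, n = 4 each), and 51.9 ± 19.6 and 8.48 ± 5.70 in CD4+ TILs. Its log2 fold change passed in CD8+ TILs (−2.22, adjusted p = 0.00663, edgeR's quasi-likelihood test) and in CD4+ TILs only without the libraries with few genes detected (−1.95, adjusted p = 0.00163, against −2.60 and adjusted p = 1 with them).

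CD8+ and CD4+ TILs of WT mice were compared first. Tigit and Pdcd1 were lower in WT CD8+ than in WT CD4+ TILs, by 2.94-fold and 2.04-fold, and Cd96 and Havcr2 were higher, by 2.26-fold and 1.87-fold. These 4 of the 10 receptors passed a Benjamini–Hochberg adjusted p of 0.05 in edgeR's quasi-likelihood test, where 11.9% of the 14892 genes tested passed. For 7 of the 10 receptors the 4 CD8+ libraries lay wholly on one side of the 4 CD4+ libraries, against 22.3% of all genes. The median log2 fold change of the 10 receptors was 0.11, beside −0.02 over all genes tested. In bulk RNA, fewer cells that carry a receptor and less of its RNA per cell cannot be told apart.

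**Figure D1:**
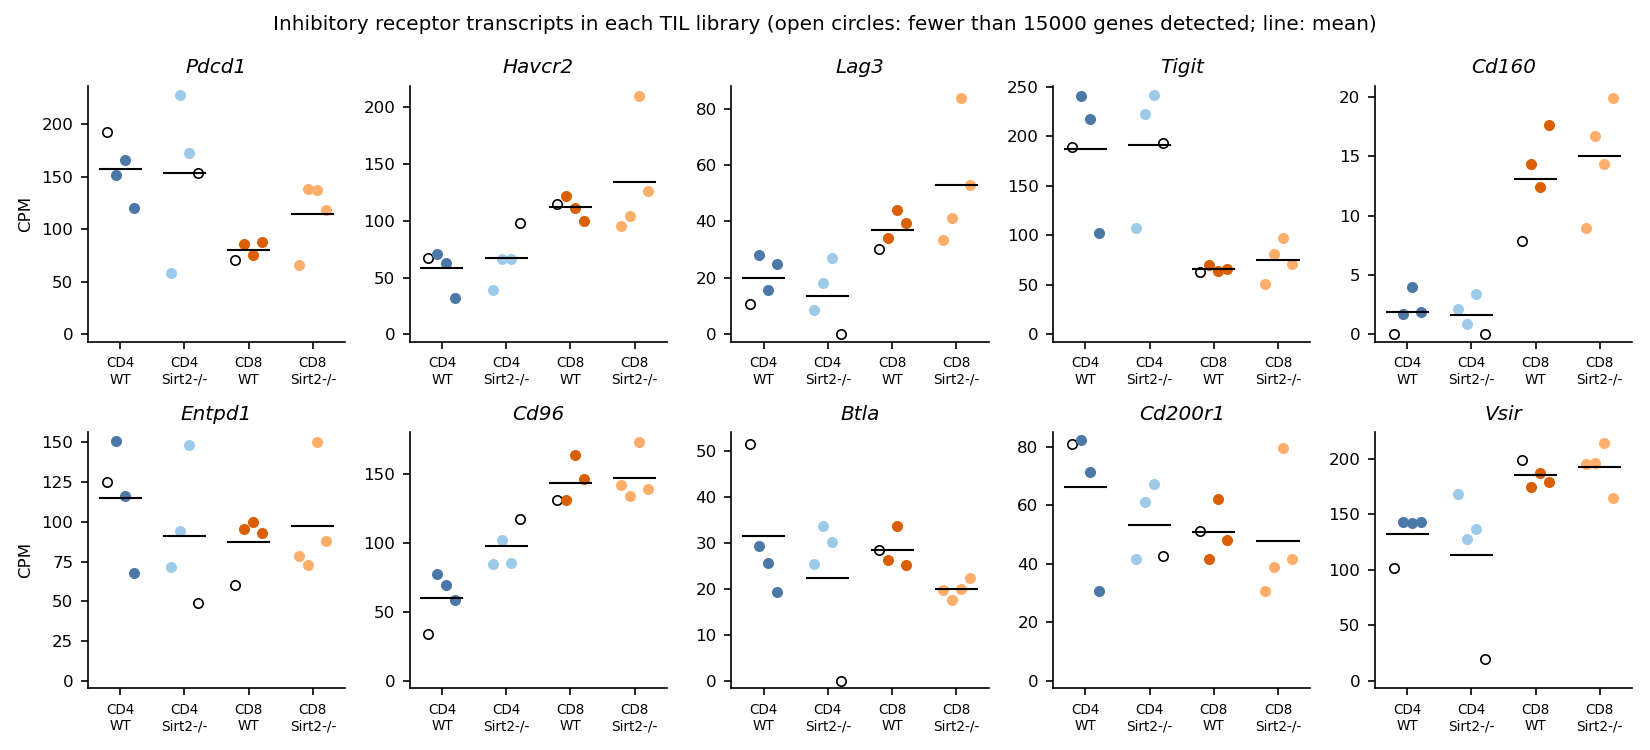
CPM (y axis, from 0) of each inhibitory receptor gene in the 16 libraries, grouped by cell type and genotype (x axis). Points are libraries, lines are means of 4 libraries and open circles are the 3 libraries with under 15000 genes detected; the CD8+ points of Tigit lie below every CD4+ point, and those of Cd96 lie above.

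Tigit (ENSMUSG00000071552.5, chr16:43648867-43664146, minus strand, GRCm38) measured 189, 240, 217 and 102 CPM in WT CD4+ replicates 1 to 4 and 62.6, 69.7, 64.0 and 65.8 CPM in the WT CD8+ replicates. Every CD4+ library was thus above every CD8+ library, and the CD8+ libraries lay within a narrow range while CD4+ replicate 4 was low. The log2 fold change of CD8+ over CD4+ was −1.56 (standard error 0.20, adjusted p = 0.000525, edgeR), and it was −1.47 without the libraries with few genes detected. Treg cells are known for high TIGIT, and 5 Treg markers (Foxp3, Il2ra, Ikzf2, Ikzf4 and Nrp1) summed to 1430 to 2850 CPM in WT CD4+ and 279 to 344 CPM in WT CD8+ libraries, with none of them at 0. Their part in the levels of Tigit and Pdcd1 was not tested.

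Pdcd1 (ENSMUSG00000026285.7, chr1:94038305-94052553, minus strand) encodes PD-1, the receptor of PD-L1. It measured 193, 152, 166 and 120 CPM in WT CD4+ replicates 1 to 4 and 70.9, 85.7, 75.8 and 87.7 CPM in the WT CD8+ replicates, again without overlap. Its log2 fold change was −1.03 (standard error 0.14, adjusted p = 0.00071, edgeR). Without the libraries with few genes detected it was −0.82 (adjusted p = 0.000452, edgeR).

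Havcr2 (ENSMUSG00000020399.14, chr11:46454935-46481255, plus strand), a marker of terminally exhausted CD8+ T cells, ran the other way. It measured 67.3, 70.9, 63.0 and 32.4 CPM in the WT CD4+ replicates and 115, 122, 111 and 100 CPM in the WT CD8+ replicates. The log2 fold change was 0.90 (standard error 0.19, adjusted p = 0.00939, edgeR), and 1.01 (adjusted p = 0.00331, edgeR) without the libraries with few genes detected.

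Cd96 (ENSMUSG00000022657.9, chr16:46035657-46120251, minus strand) measured 34.0, 77.1, 69.1 and 58.6 CPM in the WT CD4+ replicates and 131, 131, 164 and 146 CPM in the WT CD8+ replicates. The lowest of these is CD4+ replicate 1, which had few genes detected. With that library the log2 fold change was 1.18 (standard error 0.24, adjusted p = 0.00931, edgeR), and it was 1.09 without it and WT CD8+ replicate 1. Tigit and Cd96 bind the same ligand and were on opposite sides of the comparison.

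Cd160 (chr3:96798763-96829351, minus strand), a receptor of HVEM known from cytotoxic cells, had 0, 76, 167 and 78 counts in the WT CD4+ replicates, which is 0 to 4.00 CPM. Its 0 in replicate 1 allows up to 3 counts, or 0.107 CPM, where this limit and the others like it cover counting error only. In WT CD8+ TILs it measured 7.85, 14.3, 12.4 and 17.6 CPM, above every CD4+ library. The log2 fold change of 2.69 (standard error 0.98, adjusted p = 0.108, edgeR) did not pass with all libraries and was 2.56 (adjusted p = 0.000308, edgeR) without the 2 WT libraries with few genes detected. The span of Cd160 overlaps Pdzk1 on the other strand, as that of Vsir overlaps Cdh23. The library kit keeps the strand, and how the counting treated it was not examined.

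Lag3 (chr6:124904361-124911705, minus strand) measured 10.6, 28.1, 15.8 and 24.9 CPM in the WT CD4+ replicates and 30.3, 34.3, 44.1 and 39.4 CPM in the WT CD8+ replicates. The groups did not overlap, but the log2 fold change of 0.80 (standard error 0.33, adjusted p = 0.164, edgeR) did not pass. Without the 2 libraries it was 0.73 (adjusted p = 0.0369, edgeR). Vsir (chr10:60346851-60372684, plus strand), which encodes VISTA, measured 102 to 143 CPM in WT CD4+ and 175 to 199 CPM in WT CD8+ TILs. Its log2 fold change was 0.40 (adjusted p = 0.162, edgeR), and 0.31 (adjusted p = 0.056, edgeR) without the 2 libraries. With all libraries, then, 3 receptors whose groups did not overlap missed the threshold.

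Entpd1, Cd200r1 and Btla overlapped between the WT cell types and did not pass. Entpd1 (chr19:40612366-40741602, plus strand) measured 115 ± 34.8 CPM in WT CD4+ and 87.4 ± 18.2 in WT CD8+ TILs (SD, n = 4 each), with an interval of the log2 fold change from −0.91 to 0.03. Entpd1 shares its span and strand with 3 small annotated genes, so its count is less certain. Cd200r1 (chr16:44765736-44794978, plus strand) measured 66.4 ± 24.3 and 50.8 ± 8.56 CPM (SD, n = 4 each), with an interval from −0.95 to 0.12. Btla (chr16:45224315-45257670, plus strand) measured 31.4 ± 13.9 and 28.4 ± 3.84 CPM (SD, n = 4 each), with an interval from −0.74 to 0.38, and its log2 fold change turned from −0.18 to 0.18 without the 2 libraries. Differences of these sizes in either direction are therefore not resolved. Without the replicates 1 of WT CD4+ and CD8+ TILs, 6 of the 10 receptors passed, where 28.0% of 15694 genes did. With all 16 libraries in 1 model, 2 passed, Tigit and Cd96, where 811 of 17270 genes did. Pdcd1 and Havcr2 then had an adjusted p of 0.0792 and 0.0714 (edgeR).

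In Sirt2-/- mice the same comparison of CD8+ with CD4+ TILs gave 1 receptor past the threshold, Tigit, where 2.24% of 15787 genes passed. Tigit measured 107, 222, 241 and 193 CPM in the Sirt2-/- CD4+ replicates and 50.9, 81.2, 97.3 and 71.1 CPM in the Sirt2-/- CD8+ replicates, so that the groups did not overlap. Lag3, Cd160 and Cd96 also did not overlap, which made 4 of 10 receptors against 21.3% of all genes. The log2 fold change of Tigit was −1.36 (standard error 0.28, adjusted p = 0.0459, edgeR). The call did not hold when any 1 of Sirt2-/- CD4+ replicates 2 and 3 or Sirt2-/- CD8+ replicates 1 to 4 was left out, with log2 fold changes from −1.57 to −1.22 and adjusted p from 0.0116 to 0.164 over the 8 libraries left out in turn.

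**Figure D2:**
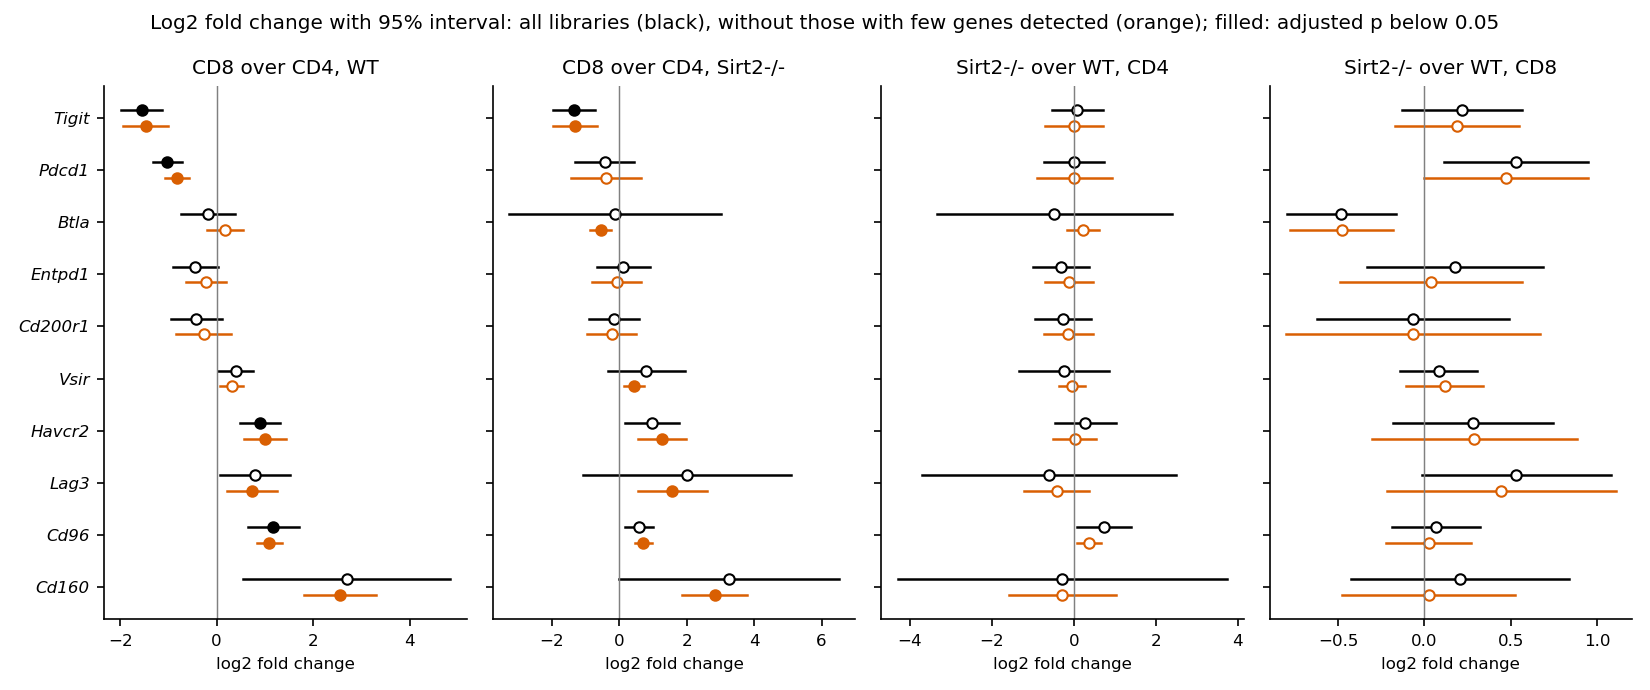
Log2 fold change (x axis) of each receptor gene (y axis) in 4 comparisons, with the 95% interval of edgeR's quasi-likelihood fit as a line, over all libraries (black) and without those with under 15000 genes detected (orange); filled points have an adjusted p below 0.05. Tigit lies left of 0 in CD8+ over CD4+ TILs of both genotypes, and no point is filled in Sirt2-/- over WT.

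Sirt2-/- CD4+ replicate 4, the library with the fewest genes detected, decided how many receptors passed. There Lag3, Cd160 and Btla had 0 counts, which allows up to 0.0481 CPM each, and Vsir was at 19.7 CPM against 128 to 168 CPM in the other 3 Sirt2-/- CD4+ libraries. Without it, 7 of the 10 receptors passed in the Sirt2-/- comparison, where 25.4% of 16703 genes did. Cd160 (log2 fold change 2.83), Lag3 (1.57), Havcr2 (1.25), Cd96 (0.72) and Vsir (0.44) were then higher in CD8+ TILs, and Tigit (−1.32) and Btla (−0.56) were lower. Pdcd1, lower in WT CD8+ than in WT CD4+ TILs, had a log2 fold change of −0.43 in Sirt2-/- mice with all libraries (95% interval −1.30 to 0.44) and −0.40 without replicate 4, and did not pass in either fit. The difference between these cell type effects of Pdcd1, Sirt2-/- minus WT, was 0.54 (95% interval −0.34 to 1.41, adjusted p = 1, edgeR).

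In the Sirt2-/- libraries Pdcd1 spread widely, at 58.3, 228, 173 and 154 CPM in CD4+ replicates 1 to 4 and at 66.3, 138, 137 and 118 CPM in the CD8+ replicates. In both cell types replicate 1 was the lowest. Havcr2 measured 38.8, 66.3, 66.2 and 98.0 CPM in the CD4+ and 95.5, 104, 210 and 126 CPM in the CD8+ replicates, where CD4+ replicate 4 reached above the lowest CD8+ library.

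A RefSeq window of the 250 bases before the annotated start (GRCm38.p6) was at hand for 8 of the 10 receptors, as 10 windows. The 6-base core TGTGGT recognized by RUNX factors, which act in both T cell lineages, was searched on both strands. It lies in 6 of the 10 windows, belonging to Havcr2, Tigit, Cd160, Cd96 and Btla, and in 14.0% of all 32851 windows of that length. The windows of the 4 receptors that passed in WT are shown because these genes separate the cell types in different directions, and capitals mark the core or its reverse complement ACCACA. It starts 140 bases upstream in Tigit (chr16:43664185-43664434, minus strand), 28 bases upstream in Cd96 (chr16:46120249-46120498, minus strand) and 46 bases upstream in Havcr2 (chr11:46454681-46454930, plus strand), and Pdcd1 (chr1:94052554-94052803, minus strand) has none in this window.
Tigit: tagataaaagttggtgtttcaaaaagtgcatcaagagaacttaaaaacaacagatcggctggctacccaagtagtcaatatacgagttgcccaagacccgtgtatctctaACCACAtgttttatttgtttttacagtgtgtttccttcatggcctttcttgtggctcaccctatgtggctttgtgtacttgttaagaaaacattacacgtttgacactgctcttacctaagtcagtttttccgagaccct
Cd96: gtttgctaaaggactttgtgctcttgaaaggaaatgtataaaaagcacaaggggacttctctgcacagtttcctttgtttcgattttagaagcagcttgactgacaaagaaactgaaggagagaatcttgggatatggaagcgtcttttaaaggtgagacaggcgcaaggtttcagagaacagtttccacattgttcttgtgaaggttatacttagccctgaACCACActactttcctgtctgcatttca
Havcr2: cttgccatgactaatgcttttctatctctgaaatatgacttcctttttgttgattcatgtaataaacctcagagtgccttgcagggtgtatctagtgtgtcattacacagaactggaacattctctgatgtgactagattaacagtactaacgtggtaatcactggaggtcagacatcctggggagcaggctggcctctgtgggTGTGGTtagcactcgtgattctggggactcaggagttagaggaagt
Pdcd1: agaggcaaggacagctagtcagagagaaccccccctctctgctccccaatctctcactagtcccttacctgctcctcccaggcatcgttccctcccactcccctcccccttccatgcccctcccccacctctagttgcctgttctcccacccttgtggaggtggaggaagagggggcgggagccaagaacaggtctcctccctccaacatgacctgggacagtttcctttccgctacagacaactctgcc

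The core was thus present both in a receptor that was lower in CD8+ TILs and in receptors that were higher. An AP-1 site (TGANTCA) lies in 1 window of the receptors, that of Havcr2, and in 6.75% of all windows. The E-box CANNTG lies in 5 of the 10 windows and in 66.2% of all windows, and the T-box core TCACAC in 3 windows of 2 receptors and in 12.3% of all windows, each searched on both strands. Matches of this kind are letters in a window, not sites shown to be bound. Tigit, Cd200r1, Btla and Cd96 lie within 2.47 Mb of chromosome 16, a span with 56 genes of the table.

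Levels of different receptors were compared per kb of exon (CPM divided by the length of all exons together). In WT CD4+ TILs Tigit stood highest, at 204 ± 65.4 CPM per kb (SD, n = 4), followed by Pdcd1 at 81.8 ± 15.7, and neither overlapped the next receptor in the order. Cd96, Vsir, Havcr2, Entpd1 and Cd200r1 followed at 19.8 to 27.3 CPM per kb, each overlapping the next, then Lag3 and Btla at 9.42 and 9.24, and Cd160 came last at 0.717. In WT CD8+ TILs the order was flatter. Tigit (71.3 CPM per kb) and Cd96 (65.5) overlapped at the top, Pdcd1 (41.5), Havcr2 (41.2) and Vsir (36.9) formed the next set, and Lag3 (17.6), Entpd1 (15.7) and Cd200r1 (15.2) the third, above Btla (8.35) and Cd160 (4.94).

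**Figure D3:**
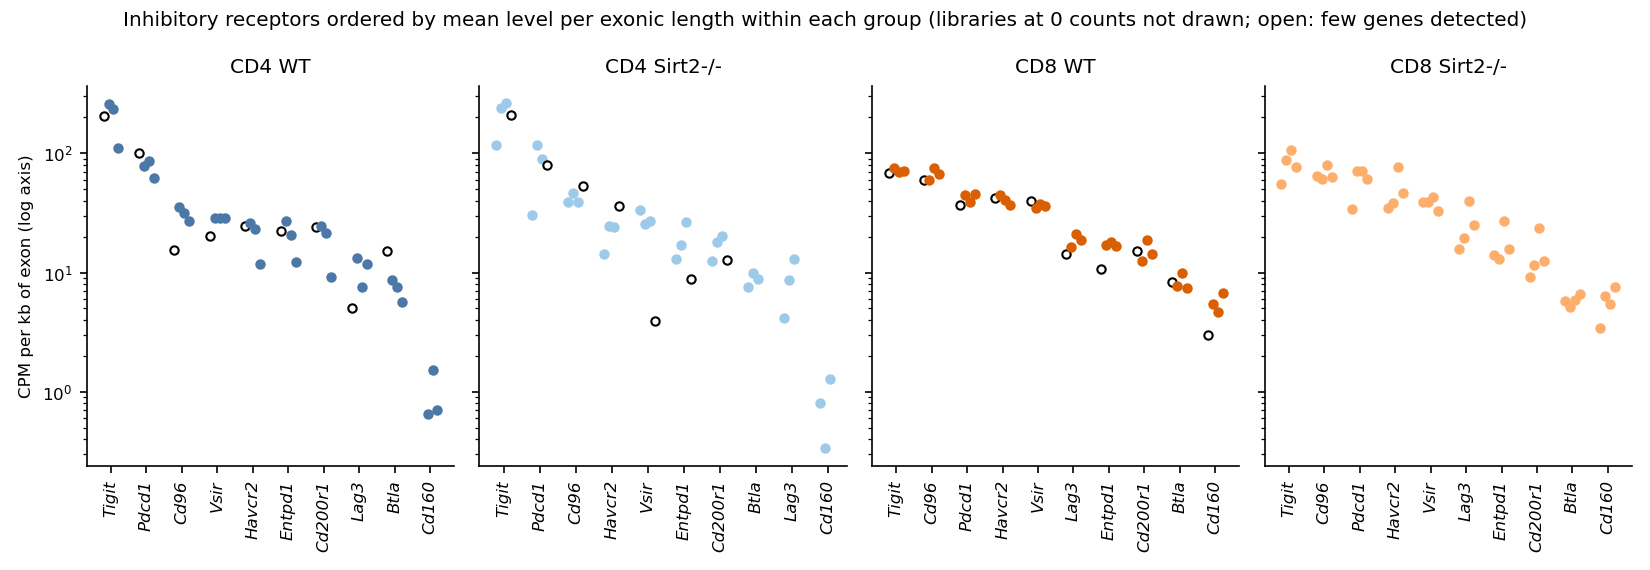
CPM per kb of exon (y axis, log scale) of each receptor gene in the 4 groups, ordered within a group by its mean over 4 libraries (x axis); points are libraries, open points have under 15000 genes detected, and libraries at 0 counts are not drawn. The levels run from 204 (Tigit) to 0.717 (Cd160) in WT CD4+ TILs and from 71.3 to 4.94 in WT CD8+ TILs.

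The Sirt2-/- groups kept Tigit on top and Cd160 at the bottom of the order per kb. Sirt2-/- CD4+ TILs had Tigit at 208, Pdcd1 at 79.4 and Cd96 at 44.6 CPM per kb, with the first 2 pairs overlapping. Sirt2-/- CD8+ TILs had Tigit at 81.7, Cd96 at 67.2, Pdcd1 at 59.4 and Havcr2 at 49.2 CPM per kb, each overlapping the next. The ratio of Tigit to Havcr2 per kb within a library was 8.33 to 10.2 in WT CD4+ and 5.82 to 10.8 in Sirt2-/- CD4+ TILs, and 1.61 to 1.94 in WT CD8+ and 1.37 to 2.32 in Sirt2-/- CD8+ TILs. The ratio describes 2 receptors that passed in WT in opposite directions and adds no test.

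The CPM of the 10 receptors together had means of 830 ± 161 (WT CD4+), 803 ± 190 (Sirt2-/- CD4+), 802 ± 39.9 (WT CD8+) and 896 ± 198 (Sirt2-/- CD8+) over 4 libraries each (SD).

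Sirt2-/- and WT TILs were then compared within each cell type, which asks whether loss of the deacetylase moved the receptors. These comparisons use the same libraries as those between the cell types. In CD4+ TILs 0 of the 10 receptors passed in edgeR's quasi-likelihood test, where 0% of 15070 genes passed, and 0 passed with DESeq2 or limma-voom. By unadjusted p, 1 receptor was under 0.05 with each of the 3 tools, where 1.26% of genes were with edgeR, 313 of 15070 genes with DESeq2 and 1109 with limma-voom. The edgeR count was 0 without Sirt2-/- CD4+ replicate 2 (230 of 15583 genes) or replicate 4 (452 of 16154 genes). That receptor with edgeR was Cd96, at 84.8, 102, 85.7 and 117 CPM in Sirt2-/- CD4+ replicates 1 to 4 against 34.0, 77.1, 69.1 and 58.6 CPM in the WT CD4+ replicates. Every Sirt2-/- library was above every WT library, as happened in either direction for 2.81% of genes. The log2 fold change was 0.73 (95% interval 0.08 to 1.39, unadjusted p = 0.0315, adjusted p = 1, edgeR), and 0.37 (95% interval 0.08 to 0.66, adjusted p = 0.966, edgeR) without Sirt2-/- replicate 4 and WT replicate 1, which hold the highest and the lowest value. In that fit 0 receptors passed as well, where 0.0374% of genes did.

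Pdcd1 and Tigit, the receptors at the highest level per kb in CD4+ TILs, had log2 fold changes of −0.00 (95% interval −0.74 to 0.73) and 0.08 (−0.54 to 0.70) in Sirt2-/- over WT. Changes of up to about these bounds are not resolved. Havcr2 had 0.28, Entpd1 −0.31, Cd200r1 −0.27 and Vsir −0.24 as log2 fold change, all with intervals across 0. Intervals were widest for the receptors at 0 counts in Sirt2-/- CD4+ replicate 4, from −3.69 to 2.49 for Lag3, −4.30 to 3.74 for Cd160 and −3.34 to 2.40 for Btla. Without the libraries with few genes detected, Btla changed sign, from −0.47 to 0.23 (95% interval −0.17 to 0.62).

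In CD8+ TILs 0 of the 10 receptors passed in edgeR's test either, where 0.00654% of 15302 genes did (1 gene, Sirt2), and 0 passed with DESeq2 or limma-voom. By unadjusted p, 2 receptors were under 0.05 with edgeR (3.78% of genes), 3 with DESeq2 (752 genes of 15302) and 2 with limma-voom (929 genes). The edgeR count was 4 without Sirt2-/- CD8+ replicate 1 (472 of 15702 genes) and 1 without WT CD8+ replicate 1 (666 of 15943 genes). The median of the 10 log2 fold changes was 0.19, beside 0.01 over all genes, and without WT CD8+ replicate 1 it was 0.08, beside 0.01.

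Btla had the smallest unadjusted p of the receptors in CD8+ TILs. It measured 19.8, 17.6, 20 and 22.3 CPM in Sirt2-/- CD8+ replicates 1 to 4 and 28.5, 26.2, 33.7 and 25.1 CPM in the WT CD8+ replicates. The groups did not overlap, which held for 2.93% of genes in either direction. The log2 fold change was −0.48 (95% interval −0.80 to −0.16, unadjusted p = 0.00672, adjusted p = 0.986, edgeR), and −0.48 as well without WT CD8+ replicate 1, where 0 receptors and 0.0439% of genes passed.

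Pdcd1 was at 66.3, 138, 137 and 118 CPM in the Sirt2-/- CD8+ replicates and at 70.9, 85.7, 75.8 and 87.7 CPM in the WT CD8+ replicates. Sirt2-/- replicates 2 to 4 were above every WT library and replicate 1 was below every WT library. The log2 fold change was 0.53 (95% interval 0.11 to 0.95, unadjusted p = 0.0172, adjusted p = 0.986, edgeR), and without WT CD8+ replicate 1 it was 0.47 (95% interval −0.00 to 0.95). Lag3 had 33.3, 41.1, 83.8 and 52.8 CPM against 30.3, 34.3, 44.1 and 39.4, a log2 fold change of 0.53 (95% interval −0.01 to 1.08, adjusted p = 0.986, edgeR) that was 0.23 without Sirt2-/- replicate 3. The remaining receptors had log2 fold changes from −0.07 (Cd200r1) to 0.28 (Havcr2), with intervals across 0.

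With all libraries the intervals of the genotype effect were narrower in CD8+ than in CD4+ TILs, but without the libraries with few genes detected those of Havcr2 and Cd200r1 were wider in CD8+ TILs. Vsir, at 192 ± 20.4 CPM in Sirt2-/- and 185 ± 10.7 in WT CD8+ TILs (SD, n = 4 each), had an interval from −0.14 to 0.31, and Cd96, at 147 ± 17.7 and 143 ± 15.7 CPM (SD, n = 4 each), one from −0.19 to 0.32. For Tigit the interval ran from −0.13 to 0.56 and for Havcr2 from −0.18 to 0.75.

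Whether Sirt2-/- acted differently on the receptors in CD8+ and CD4+ TILs was tested over all 16 libraries. In edgeR's test 0 of 10 receptors passed, where 0% of 17270 genes did, and 0 passed with DESeq2 or limma-voom. At an unadjusted p under 0.05 stood 1 receptor with edgeR (1.98% of genes), 1 with DESeq2 (497 of 17270 genes) and 2 with limma-voom (779 genes). With edgeR this was Cd96, whose difference of the log2 fold changes, CD8+ minus CD4+, was −0.67 (95% interval −1.34 to −0.00, adjusted p = 1). Without the 3 libraries it was −0.34 (−0.70 to 0.02), and Btla was then the receptor with the smallest unadjusted p, at −0.71 (95% interval −1.17 to −0.24, unadjusted p = 0.00493, adjusted p = 1, edgeR), from 0.01 with all libraries.

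Several receptors varied together across the libraries of a group. In Sirt2-/- CD8+ TILs, replicate 3 was highest for 7 of the 10 receptors and replicate 1 lowest for 6. In WT CD8+ TILs, replicate 3 was highest for 5, and replicate 1, with few genes detected, lowest for 6. In Sirt2-/- CD4+ TILs, replicate 3 was highest for 5, and replicates 1 and 4 were lowest for 5 each. In WT CD4+ TILs, replicate 2 was highest for 7 and replicate 4 lowest for 6. That replicate 4 was also lowest in the sum of 7 T cell markers such as Cd3e and Lck, at 1770 CPM against 2700 to 2860. In Sirt2-/- CD8+ TILs this sum was 2920 CPM in replicate 1 and 3420 in replicate 3, within a range of 2770 to 3680. The part of such shifts in the receptor levels was not tested. How many of all genes were highest or lowest in the same replicates was not counted. The counts above are therefore not shown to be particular to the receptors. Over the 13 libraries with at least 15000 genes detected, log2 CPM minus the group mean gave Pearson r of 0.91 for Havcr2 with Cd200r1, 0.90 for Havcr2 with Entpd1, 0.88 for Entpd1 with Cd200r1, 0.87 for Havcr2 with Tigit and 0.81 for Pdcd1 with Tigit. Vsir had r of −0.65 with Pdcd1, −0.60 with Tigit, −0.37 with Havcr2, −0.25 with Cd200r1 and −0.19 with Entpd1, and Cd160 was at −0.58 with Cd96. These are descriptions, since the points of a pair share library and depth. With the libraries with few genes detected included, several values moved, and r went from 0.36 to 0.95 for Lag3 with Btla, from −0.14 to 0.94 for Lag3 with Vsir and from 0.90 to 0.33 for Havcr2 with Entpd1. Vsir then had r of −0.37 with Pdcd1, −0.31 with Tigit, −0.63 with Havcr2, 0 with Cd200r1 and 0.37 with Entpd1.

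**Figure D4:**
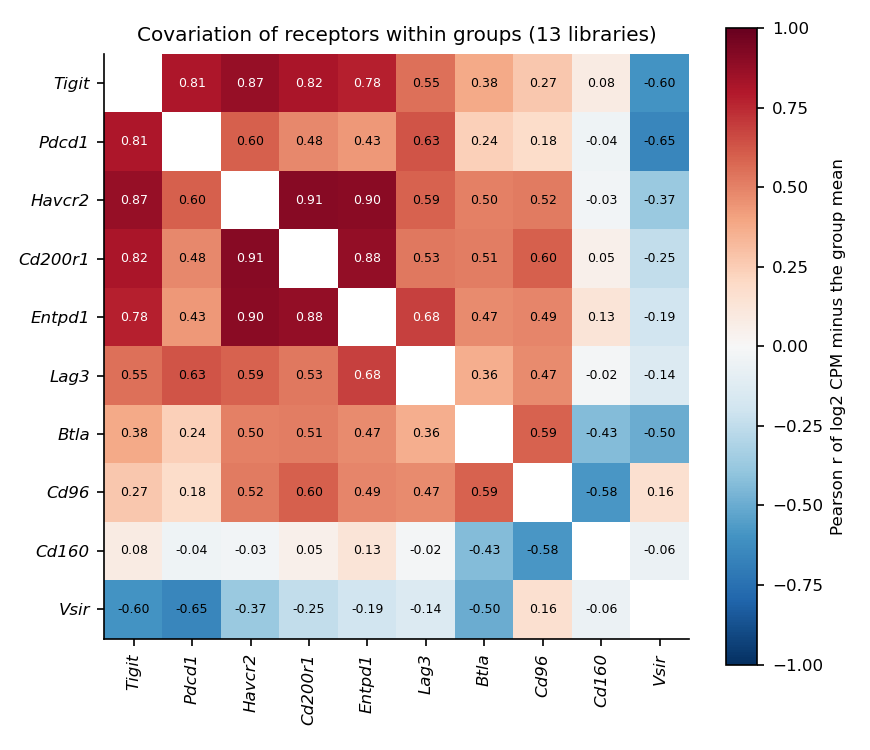
Pearson r (color and printed value) between receptor genes (both axes) of log2 CPM minus the group mean, over the 13 libraries with at least 15000 genes detected in 4 groups. Havcr2, Cd200r1, Entpd1 and Tigit form a block with r of 0.78 to 0.91, while the row of Vsir is mostly below 0.

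The 5 Treg markers moved with some receptors. Their summed level was 1200 to 2390 CPM in Sirt2-/- CD4+ and 226 to 393 CPM in Sirt2-/- CD8+ TILs, and none of the 5 was at 0 there. For r, log2 CPM minus the group mean was averaged over the 5 markers, which weighs them equally, unlike the sum. Over the same 13 libraries of both cell types this average had r of 0.83 with Tigit, 0.74 with Havcr2 and 0.72 with Pdcd1. It had r of 0.72 with Entpd1, 0.71 with Cd200r1, 0.65 with Lag3 and 0.54 with Btla. For Cd160 and Cd96 r was 0.25 each, and for Vsir −0.70. The points include CD8+ libraries, none of which had Foxp3 above 6.77 CPM. The summed level of 12 myeloid markers was 16.7 to 20.8 CPM in WT CD4+, 21.9 to 134 in Sirt2-/- CD4+, 10.8 to 15.9 in WT CD8+ and 14.6 to 56.3 in Sirt2-/- CD8+ TILs. The value of 134 is Sirt2-/- CD4+ replicate 4, in which 9 of the 12 were at 0, and Apoe alone reached 123 CPM in this group. At 0 stood 1 to 10 of the 12 in WT CD4+, 0 to 9 in Sirt2-/- CD4+, 0 to 9 in WT CD8+ and 0 in Sirt2-/- CD8+ libraries. Of the 12, 11 passed the filter over all 16 libraries. Their equally weighted average, not their sum, had within-group r of −0.70 with Vsir and 0.56 with Pdcd1 over the same 13 libraries. Sirt2-/- CD4+ replicate 4 is not among these 13. VISTA and TIM-3 are also made by myeloid cells. Markers of NK cells, which carry CD96, TIGIT and CD160, summed to 6.82 to 42.8 CPM in CD4+ and 31.5 to 93.6 CPM in CD8+ TILs. Most of this sum was Klra7, with means of 8.08 CPM in WT CD4+ and 58.3 in WT CD8+ TILs, while Ncr1, a defining NK gene, averaged 0.901 and 0.672 CPM there. The part of these cells in the receptor levels was not tested.

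Among 14258 genes tested in both cell types, the gene most like each receptor in its within-group pattern over the 13 libraries had an r of 0.90 to 0.99. Each is the highest of 14258 values over few libraries, so a high r was to be found in any case. The genes are named as description, and no likeness was tested. Pdcd1 was nearest to Odc1, which encodes ornithine decarboxylase of polyamine synthesis (r = 0.96, and 0.82 over all 16 libraries). Havcr2 was nearest to Sh3bgrl (0.97 and 0.93) and Vsir to Maz, a zinc finger factor (0.98 and 0.80). For the others r was lower over all 16 libraries, most of all for Lag3, whose r with Kcnq5 was 0.99 over 13 and −0.63 over 16 libraries, and for Cd96, whose r with Cx3cr1, a chemokine receptor of effector T cells, was 0.90 and −0.22. The nearest genes of Tigit, Cd160, Entpd1, Btla and Cd200r1 were Tstd3, Gm15547, Atp5f1, Bcap29 and Phactr2.

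Other genes of the same pathways were taken from hand-written lists to set the receptors in context. The list of 9 activating receptors includes Tnfsf14, which encodes LIGHT, a ligand of HVEM and not a receptor. In the comparison of WT CD8+ with CD4+ TILs, 11.9% of all genes had an adjusted p below 0.05 (edgeR). There 6 of 9 activating receptors were lower and 0 higher, with a median log2 fold change of −1.30, beside −0.02 over all genes. The largest were Tnfrsf4 (OX40, −4.88), Icos (−3.09), Tnfrsf18 (GITR, −2.34) and Tnfrsf9 (4-1BB, −1.88), costimulatory receptors that are also high on Treg cells. Cd226, the activating rival of TIGIT and CD96, had 0.41 (adjusted p = 0.24, edgeR) and was chosen after its values were seen. Without the libraries with few genes detected it was higher in CD8+ TILs, by 0.68 in WT (adjusted p = 0.0189, edgeR) and 0.69 in Sirt2-/- (adjusted p = 0.0121, edgeR). Of 9 other inhibitory receptors tested, 2 were higher (Cd244a, 4.71, and Klrc1, 3.58) and 4 lower, the largest being Ctla4 (−4.69) and Klrg1 (−2.42). Ctla4, which competes with CD28 for its ligands, thus had a log2 fold change larger in size than that of any of the 10 receptors.

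**Figure D5:**
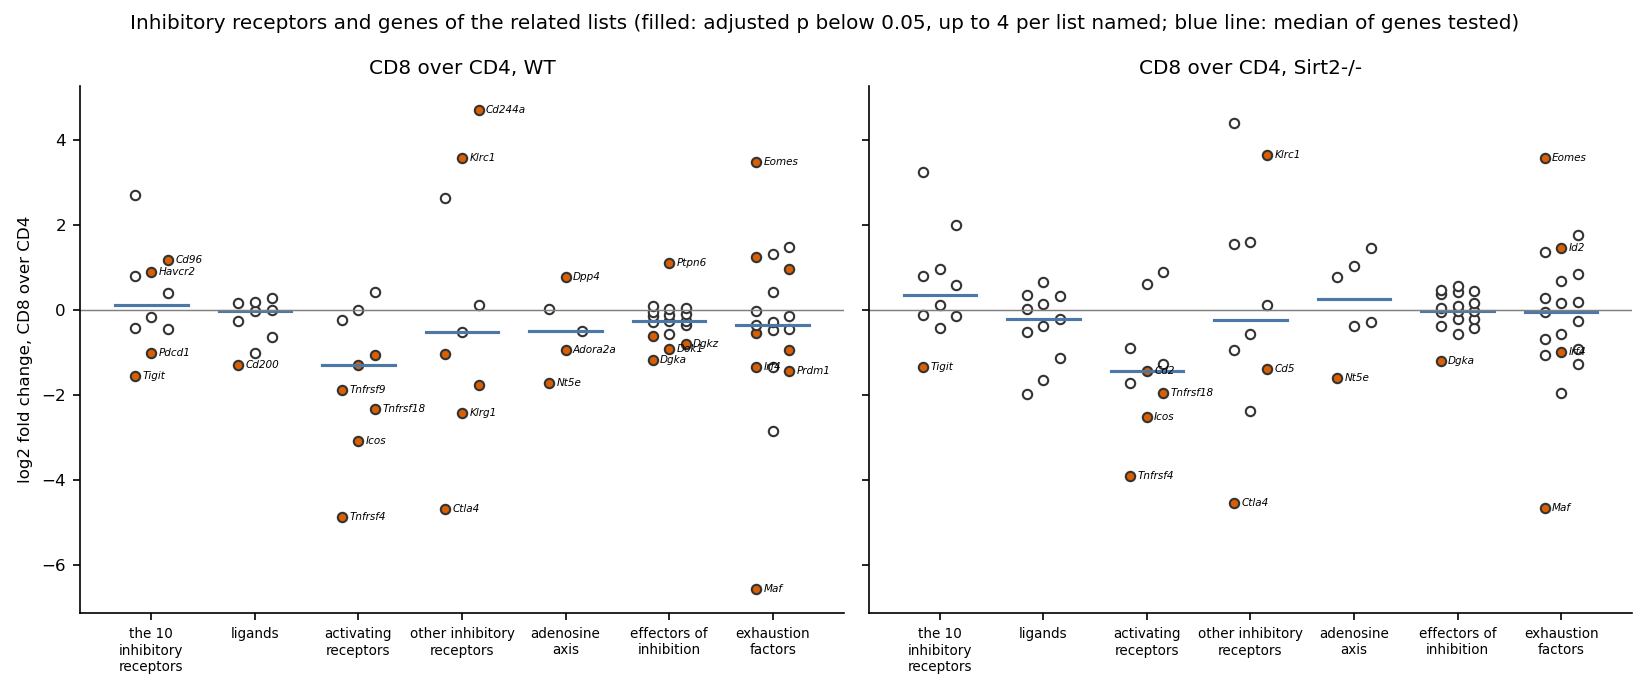
Log2 fold change of CD8+ over CD4+ TILs (y axis) in WT (left) and Sirt2-/- (right) for the 10 receptors and 6 lists of related genes (x axis), 1 point per gene tested, filled at an adjusted p below 0.05 (edgeR), with the list median as a line and up to 4 passing genes of each list named. The receptors scatter on both sides of 0 while the activating receptors have a median of −1.30 in WT and −1.45 in Sirt2-/-.

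In the same comparison of WT TILs, where 11.9% of all genes passed, 0 of 9 ligands tested were higher. Only 1 was lower, Cd200 (−1.29), the ligand of CD200R1. In the adenosine pathway, where CD39 acts first, 1 of 5 genes was higher, Dpp4 (0.77), and 2 were lower, Nt5e (CD73, −1.72), the enzyme after CD39, and Adora2a (−0.95), the adenosine receptor. Of 17 effectors of inhibition, 1 was higher, Ptpn6 (SHP-1, 1.11), and 4 were lower, among them Dgka (−1.19), Dok1 (−0.92) and Dgkz (−0.81). Of 19 transcription factors tied to exhaustion, 3 were higher, led by Eomes (3.48), and 5 lower, led by Maf (−6.57), Prdm1 (−1.44) and Irf4 (−1.36). Genes on both sides of 0 that passed were thus found in the lists of other inhibitory receptors, adenosine genes, effectors and factors, as among the 10 receptors. Without the 2 WT libraries with few genes detected, where 28.0% of all genes passed, 1 of 10 ligands was higher and 3 lower, 1 of 9 activating receptors was higher and 6 lower, and 3 of 10 other inhibitory receptors were higher and 5 lower. Of 5 adenosine genes 2 were then higher and 2 lower, of 17 effectors 1 was higher and 4 lower, and of 19 factors 4 were higher and 10 lower.

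In Sirt2-/- mice 2.24% of all genes passed between CD8+ and CD4+ TILs. Lower in CD8+ TILs were 4 of 9 activating receptors, namely Tnfrsf4 (−3.92), Icos (−2.52), Tnfrsf18 (−1.95) and Cd2 (−1.45), and 0 were higher. Of 10 other inhibitory receptors 1 was higher (Klrc1, 3.63) and 2 lower (Ctla4, −4.56, and Cd5, −1.39). Nt5e (−1.61) was 1 of 6 adenosine genes and Dgka (−1.20) 1 of 17 effectors that passed, both lower. Of the factors, 2 of 19 were higher (Eomes, 3.58, and Id2, 1.45) and 2 lower (Maf, −4.66, and Irf4, −1.0). None of 11 ligands passed, and Cd200 (−1.99) and Selplg (0.33) had the smallest unadjusted p in edgeR's test. Without Sirt2-/- CD4+ replicate 4, where 25.4% of all genes passed, these counts grew to 1 higher and 7 lower for the activating receptors, 3 and 5 for the other inhibitory receptors, 2 and 1 for the adenosine genes, 1 and 2 for the effectors and 4 and 6 for the factors. Of 12 ligands 1 was then higher, Hmgb1 (0.43, adjusted p = 0.0249, edgeR), named here after its values were seen.

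Between genotypes 0 genes of these lists passed with all libraries in edgeR's test, in either cell type. In CD8+ TILs, 4 of 9 activating receptors had an unadjusted p under 0.05, where 3.78% of genes did, with Tnfrsf4 (log2 fold change 0.91) and Tnfrsf9 (0.66) in front. Of the factors it was 2 of 19, Maf (1.74) and Irf4 (0.45), of the other inhibitory receptors 1 of 10, Cd101 (−0.44), before Ctla4 (0.58), and of the ligands 1 of 9, Cd274 (PD-L1, 0.99), before Selplg (0.13). The adenosine genes and the effectors had 0 of 5 and 0 of 17, with Dpp4 (0.34), Slc29a1 (−0.20), Ptpn6 (−0.22) and Pag1 (0.13) in front. Without WT CD8+ replicate 1, Maf passed (log2 fold change 1.53, adjusted p = 0.0179, edgeR).

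In CD4+ TILs, 1 gene each of 9 other inhibitory receptors (Cd5, −0.45), 17 effectors (Cblb, 0.36) and 19 factors (Bach2, 0.73) had an unadjusted p under 0.05, where 1.26% of genes did. Next in these lists were Lair1 (2.62), Dgkz (−0.46) and Nfatc2 (−0.48). None of 10 ligands, 9 activating receptors and 5 adenosine genes was under 0.05, with Lgals9 (0.42), Cd274 (0.42), Tnfrsf9 (0.57), Cd27 (0.61), Dpp4 (0.41) and Slc29a1 (−1.59) in front. Without Sirt2-/- replicate 4 and WT replicate 1, log2 fold changes were −0.31 (Cd5), 0.31 (Cblb), 0.44 (Bach2), 0.16 (Lair1), −0.22 (Dgkz) and −0.16 (Nfatc2). They were then 0.15 (Lgals9), 0.49 (Cd274), 0.37 (Tnfrsf9), 0.18 (Cd27), 0.36 (Dpp4) and −0.50 (Slc29a1), and none of these genes passed.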

How the data were processed

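CD4+ and CD8+ TILs of WT and Sirt2-/- mice were sequenced by the authors, with 4 libraries per group. The authors deposited raw read counts for each gene, as whole numbers. The submitters' processing notes name STAR, HTSeq and mm10, and versions are not given in the sources used here. All 55450 gene identifiers matched GENCODE M21 (GRCm38), from which exon lengths came. Libraries were grouped by the cell type and genotype of their labels. Each comparison used the quasi-likelihood test of edgeR 4.0.16 in R 4.3.3, two-sided and with the robust fit, after TMM scaling and filterByExpr by group, over all genes that passed the filter, with Benjamini–Hochberg adjustment at 0.05 and intervals at 95%. CPM used the total count of the library. Log2 CPM for covariation used a prior count of 2.

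The receptors and the lists of related genes and of markers were chosen with earlier results of these data known. All 10 receptors are given. Of each list, up to 4 genes that passed with the largest change are named, or the 2 with the smallest unadjusted p where none passed. Cd160, low in CD4+ TILs, also passed the filter among CD4+ libraries alone. The fit was also run on simulated counts, in which no library was made to have few genes detected, and the outcome is not given here. Alternatives were DESeq2 1.42.0, limma 3.58.1 (voom with quality weights), DESeq2 size factors, no filter, 1 model of all 16 libraries, a block for the replicate number, and leaving out libraries. Total counts ranged from 28000949 to 62407851, and no source used here mentions molecular identifiers, so that reads may repeat a molecule and limits for 0 counts cover counting error only. Replicate libraries of a group differed by more than sampling noise.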

Additional observations from a re-analysis of the deposited data

Results flagged for a closer look

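Vsir measured 102 CPM in WT CD4+ replicate 1, against 142 to 143 CPM in the other 3 WT CD4+ libraries, a gap of 0.979 of the range of the group (Dixon's test). Of 40 sets of 4 values tested, 1 was set apart in this way, where chance sets apart about 1 in 20, or 2 of 40. This library also had few genes detected (12587). Without WT CD4+ replicate 1, the log2 fold change of Vsir in WT CD8+ over CD4+ TILs was 0.34, the lowest of those with 1 library left out.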

How the results depend on the processing

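Every log2 fold change of the 10 receptors and every count of genes past the threshold was recomputed in 7 other ways (6 for the difference, which uses all 16 libraries in any case) and with each library left out in turn. Of the values under other settings 306 kept direction and side of the threshold, 13 changed sign, 19 passed only under the alternative and 2 passed only with the settings reported. With 1 library left out these numbers were 426, 41, 7 and 6, the last being Tigit in Sirt2-/- CD8+ over CD4+ TILs.

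The numbers of genes past the threshold were 0 (Sirt2-/- over WT in CD4+), 1 (in CD8+), 1765 (CD8+ over CD4+ in WT), 354 (in Sirt2-/-) and 0 (difference). In the same order they were 7, 28, 2651, 1339 and 2 with DESeq2. With limma-voom the first 4 were 4, 4, 5481 and 4474, with 9 receptors in WT and 6 in Sirt2-/-. Without a filter the CD8+ genotype count was 5. With all 16 libraries in 1 model the cell type counts were 811 (2 receptors) and 781. Without libraries with few genes detected the first 4 were 6, 7, 4394 and 4250, with 6 receptors in WT and 7 in Sirt2-/-. With 1 library left out the CD8+ genotype count ran from 0 to 7, the WT cell type count from 1022 to 2767, and the Sirt2-/- cell type count from 111 to 4250 with 0 to 7 receptors. The upper end of the last is without Sirt2-/- CD4+ replicate 4.

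Same-numbered Sirt2-/- and WT libraries, which cannot share a mouse, correlated at −0.07 to 0.08 in their deviations. Same-numbered CD4+ and CD8+ libraries did so at 0.07 to 0.12 in WT and −0.01 to 0.13 in Sirt2-/- mice. The labels' numbers were not taken to pair them, and such values do not settle whether CD4+ and CD8+ libraries share a mouse. With the replicate number as a block the counts were 0, 4, 1619, 108 and 0, with 4 receptors in WT and 1 in Sirt2-/-. Under the replicate block Btla in Sirt2-/- CD8+ over CD4+ turned to 0.42 and the difference of Havcr2 to −0.006.

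Signs turned with limma-voom for Pdcd1 (0.13) and Btla (0.22) by genotype in CD4+, Cd160 (−0.035) and Entpd1 (−0.017) by genotype in CD8+, Entpd1 (−0.13) in Sirt2-/- CD8+ over CD4+ and the difference of Btla (−0.63). Without libraries with few genes detected they turned for Pdcd1 (0.014) and Btla (0.23) by genotype in CD4+, Btla (0.18) in WT CD8+ over CD4+, Entpd1 (−0.081) in Sirt2-/- CD8+ over CD4+ and the difference of Btla (−0.71).

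With 1 library left out, values that turned ran as follows by genotype in CD4+: Pdcd1 −0.23 to 0.27, Havcr2 −0.016 to 0.48, Tigit −0.078 to 0.28, Cd160 −0.93 to 0.31 and Vsir −0.51 to 0.10. By genotype in CD8+ they ran from −0.009 to 0.41 (Havcr2), −0.10 to 0.31 (Entpd1), −0.009 to 0.13 (Cd96) and −0.42 to 0.083 (Cd200r1). In CD8+ over CD4+ Btla ran from −0.27 to 0.18 in WT and from −0.56 to 0.13 in Sirt2-/-, and Entpd1 from −0.17 to 0.43 in Sirt2-/-. The difference ran from −0.30 to 0.31 (Havcr2), −0.064 to 0.30 (Tigit), −0.09 to 1.14 (Cd160), −0.42 to 0.27 (Btla), −0.16 to 0.41 (Cd200r1) and −0.008 to 0.60 (Vsir). Apart from the libraries with few genes detected, the cause was not tested. Sirt2-/- CD4+ replicate 4, where Lag3, Cd160 and Btla had 0 counts, has the highest total (62407851) of the 16 libraries.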
